A study of Homo sapiens with 6 samples.

Results

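The AP-1 transcription factors and their relatives ATF3, ATF2 and MAFF were measured in a pair of cybrid cell lines that share a nucleus and differ in their mitochondria. The members were the probe sets that the platform's probe table gives to a single one of the symbols FOS, FOSB, FOSL1, FOSL2, JUN, JUNB, JUND, ATF3, ATF2 and MAFF, and there were 25 of them, for 10 of 19775 genes, among 54613 probe sets tested. A cybrid is made by fusing a cell without mitochondrial DNA to an enucleated cell that supplies mitochondria. The nucleus of both lines came from 143B p0, cells of the thymidine kinase-negative human osteosarcoma line 143B without mitochondrial DNA, as the protocols in the labels state. The 10A/143B cybrid carried mitochondria of MCF10A, a non-cancerous mammary epithelial line, and the 468/143B cybrid those of MDA-MB-468, a breast cancer line. Donor cells had been enucleated under actinomycin-D, and both cybrids were selected in bromodeoxyuridine without uridine, so they share that treatment. Whether a cybrid was 1 clone or a pool is not given in the sources used here, and a further cybrid named there, 143B/143B, was not analysed here. The cell line label of each array names the mitochondrial donor alone, whereas its source name gives the cybrid. The RNA came from 3 extractions per cybrid, each on its own Affymetrix array, which makes 6 arrays. By its title, the series is about oncogenic pathways of metastatic cells that receive non-cancerous mitochondria.

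AP-1 is a dimer of proteins with a basic region, which contacts DNA, and a leucine zipper, which holds the partners together. FOS proteins bind DNA only in a pair with a JUN protein, whereas JUN proteins can also pair among themselves or with ATF proteins. Growth factors and stress switch several of these genes on within minutes through the ERK, JNK and p38 kinases, and in tumour cells AP-1 is known for driving invasion genes such as matrix proteases.

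The arrays had median intensities of 21.6 to 24.4 in 10A/143B and 20.3 to 21.3 in 468/143B. Replicates 2 and 3 were near duplicates in both cybrids. Among 9187 bright probe sets, the log2 values of these arrays differed with a standard deviation (SD) of 0.0788 in 10A/143B and 0.0922 in 468/143B, while differences from replicate 1 had SDs from 0.263 to 0.289. They were therefore averaged to 1 sample, which left 2 samples against 2, and nothing in the labels says that the extractions came from separate cultures, so p-values reflect how far these arrays differ from each other, and that spread may be technical. RNA integrity can be read from the 3′ to 5′ signal ratio of ACTB, which ranged from 1.59 to 1.92 on the 10A/143B arrays. On the 468/143B arrays it was 1.18, 1.65 and 1.67 in replicates 1, 2 and 3. The ratio of GAPDH ranged from 0.933 to 1.01 in 10A/143B and from 0.966 to 1.07 in 468/143B. VIM, an intermediate filament of mesenchymal cells, had mean intensities of 8687 and 8418, and RUNX2, the osteoblast factor, 513.5 and 604.9. KRT5, a basal keratin that MCF10A makes, stood at the lowest value of the table on all 3 10A/143B arrays, and EPCAM, an epithelial adhesion gene, had mean intensities of 55.3 and 36.8.

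Differences are 10A/143B minus 468/143B of log2(intensity + 16), a scale that understates the change of dim probe sets, with the standard error (SE) of limma's fit and p-values adjusted by Benjamini-Hochberg over all 54613 probe sets. A probe set passed at an adjusted p under 0.05. Of the 25 AP-1 and ATF probe sets, 10 passed as lower in 10A/143B and 2 as higher, while 13 did not pass. Over all probe sets 5.08% passed as lower and 10.7% as higher, 15.8% in all, and among those at or above the median level in a cybrid it was 28.4%. The median difference of the 25 was -0.35, against 0.01 for all probe sets. The genes with a probe set that was lower were FOSL1, FOSL2, JUN, JUNB, ATF3 and MAFF, and those with one that was higher were JUN and ATF2. FOS, FOSB and JUND had none that passed. Fewer cells of a type and less RNA per cell cannot be told apart in these bulk samples. On 11 probe sets all 3 10A/143B arrays lay below all 3 468/143B arrays, and on 4 they lay above, where 16.8% and 23.5% of all probe sets did so, 40.3% together. All but 4 of the 25 reached the median level of the arrays in at least 1 cybrid.

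**Figure D1:**
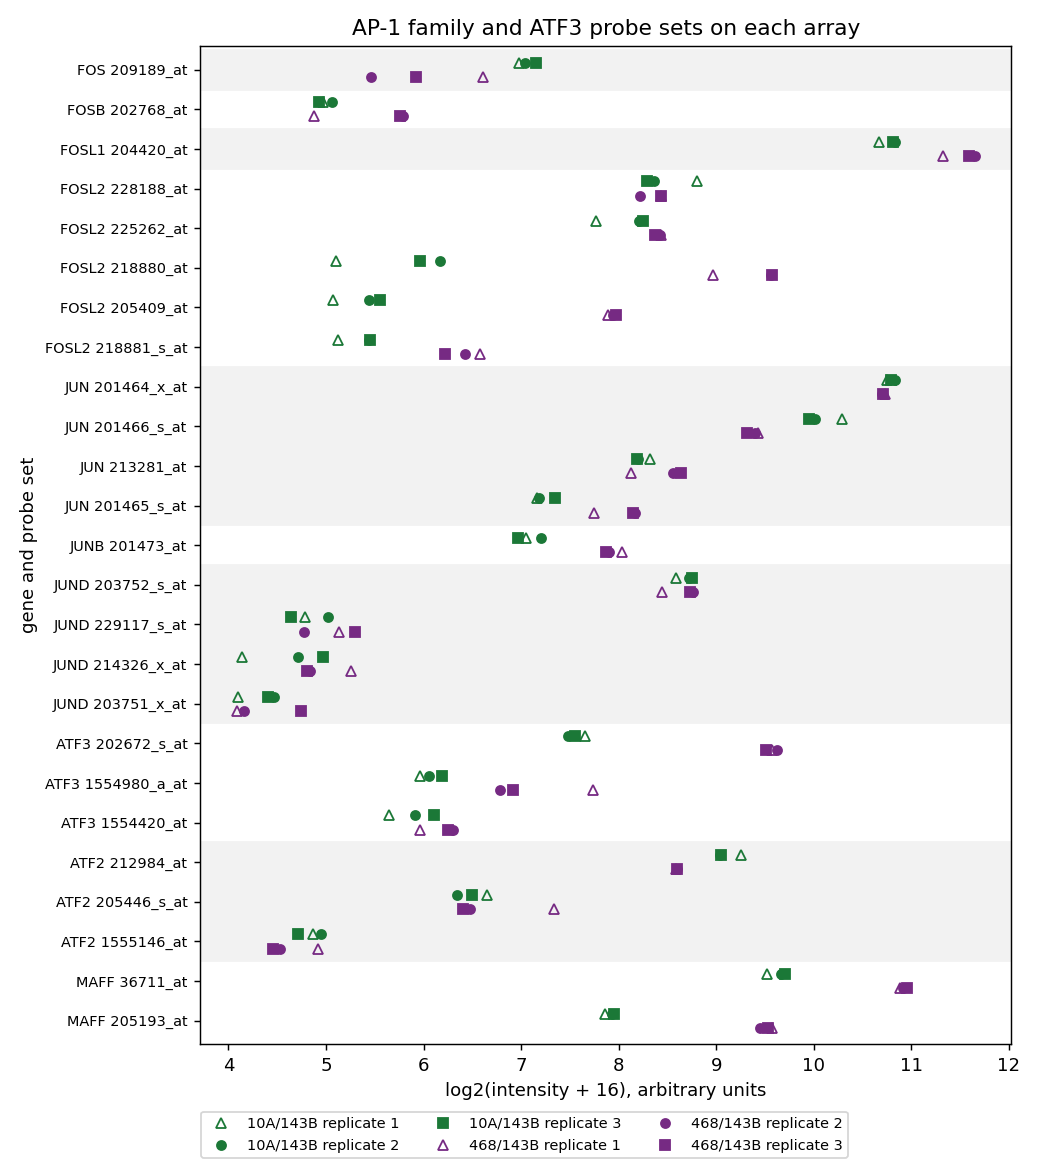
Log2(intensity + 16) of the 25 probe sets, 1 row each, in which each point is an array (10A/143B in green, 468/143B in purple, open triangles replicate 1, circles replicate 2, squares replicate 3). FOSL2 218880_at, with means of 5.58 against 9.27, has the widest gap, MAFF and ATF3 202672_s_at are separated cleanly, and the JUN probe sets lie on both sides.

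FOSL2 encodes FRA-2, a FOS protein without the strong activation domain of FOS itself, and its 5 probe sets gave different answers. On 218880_at the intensities in replicates 1, 2 and 3 were 18.3, 55.7 and 46.2 in 10A/143B and 484.4, 739.3 and 744.4 in 468/143B. The lowest 468/143B array was thus far above the highest 10A/143B array. The log2 level was 5.58 ± 0.68 against 9.27 ± 0.42 (SD, n = 2 samples), a 12.9-fold difference on this scale (-3.69 ± 0.34, adjusted p = 0.00113). The size depends on the offset, since the difference was -4.25 with an offset of 1 and -2.77 with an offset of 64.

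On 205409_at the 10A/143B arrays had 17.6, 27.3 and 31.1 and the 468/143B arrays 221.3, 229.1 and 235.6. These again did not overlap (-2.64 ± 0.24, adjusted p = 0.00112). The 10A/143B values lie near the arrays' median intensity, so the size is uncertain, and it was -3.26 with an offset of 1 and -1.74 with an offset of 64. On 218881_s_at the values were 18.8, 27.5 and 27.7 against 79.3, 70.0 and 58.5 (-1.17 ± 0.29, adjusted p = 0.0324). That call was lost without replicate 1 of 10A/143B (adjusted p = 0.140) and without replicate 1 (adjusted p = 0.286) or 2 (adjusted p = 0.0515) of 468/143B. All 3 probe sets were dim in 10A/143B.

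The other FOSL2 probe sets were of middling brightness in both cybrids and did not follow. On 225262_at the 10A/143B arrays had 202.3, 280.1 and 288.0 and the 468/143B arrays 330.8, 326.3 and 315.2. The groups did not overlap, but the difference of -0.42 ± 0.19 did not pass (adjusted p = 0.208, 95% confidence interval -0.86 to 0.02). By its mean log2 level over the 6 arrays 228188_at was the brightest of the 5, although 218880_at was brighter in 468/143B. On 228188_at the values were 430.5, 313.0 and 296.1 against 330.8, 282.1 and 330.8, and the arrays overlapped. Its difference was 0.18 ± 0.19 (95% confidence interval -0.26 to 0.62). The transcripts that the 5 probe sets detect were not compared here, and the size of the FOSL2 difference therefore depends on the probe set.

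FOSL1 encodes FRA-1, a FOS protein known for its high level in invasive tumour cells. On 204420_at its intensities were 1607, 1808 and 1783 for the 10A/143B replicates, in the order 1, 2, 3, against 2539, 3191 and 3061 for 468/143B. The arrays did not overlap, and FOSL1 was 1.65-fold lower in 10A/143B (-0.72 ± 0.13, adjusted p = 0.00890). The call was lost with a variance model that ignores intensity (adjusted p = 0.0691). Without replicate 1 of 10A/143B, which leaves 1 sample in that group, the difference was -0.65 and the call did not hold either.

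FOS encodes the founding partner of JUN and is the classic immediate early gene. Its intensities in replicates 1, 2 and 3 were 109.9, 115.4 and 126.2 in 10A/143B and 81.6, 28.1 and 44.6 in 468/143B. All 10A/143B arrays were higher, but the 468/143B arrays were spread widely. The log2 level was 7.04 ± 0.08 against 6.15 ± 0.65 (SD, n = 2 samples), and the difference of 0.89 ± 0.32 did not pass (adjusted p = 0.119, 95% confidence interval 0.13 to 1.64). With the replicate as a block, so that replicate 1 was compared with replicate 1, it passed (adjusted p = 0.0458), as it did with all 6 arrays as separate samples (adjusted p = 0.0166), but not with replicates 2 and 3 as a random block (adjusted p = 0.0744). It was 0.37 between the replicate 1 arrays and 1.40 between the means of replicates 2 and 3.

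FOSB, another immediate early FOS gene, had 15.3, 17.5 and 14.4 in 10A/143B and 13.4, 39.4 and 38.1 in 468/143B. Replicate 1 of 468/143B lay below all 10A/143B arrays and the other two above, so the sign differed between replicate 1 (0.09) and replicates 2 and 3 (-0.78). The fitted difference was -0.34 ± 0.36 (adjusted p = 0.623).

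JUN encodes the central AP-1 protein, which JNK phosphorylates, and its 4 probe sets pointed in opposite directions. On 201466_s_at the 10A/143B replicates, again in the order 1, 2, 3, had intensities of 1235, 1017 and 975.5, and those of 468/143B had 670.9, 657.1 and 621.7. JUN was thus 1.68-fold higher in 10A/143B by this probe set (0.75 ± 0.14, adjusted p = 0.0106). On 201465_s_at they were 127.1, 129.8 and 147.0 against 198.1, 270.6 and 266.9, and JUN was 1.66-fold lower (-0.73 ± 0.20, adjusted p = 0.0470). Neither pair of groups overlapped.

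The brightest JUN probe set, 201464_x_at, had 1710, 1808 and 1758 in 10A/143B and 1687, 1641 and 1663 in 468/143B. Although the arrays did not overlap, they differed by only 0.06 ± 0.10 (95% confidence interval -0.17 to 0.30), and the sign turned after quantile normalization (-0.020) and median centring (-0.026). The last, 213281_at, had 304.4, 278.2 and 276.3 against 263.2, 359.5 and 382.7, with overlap (-0.10 ± 0.19, adjusted p = 0.803). JUN therefore has no settled direction in these data. Of 10523 genes with more than 1 probe set, 204 (1.94%) likewise passed in both directions. On this platform the ending _s_at marks probe sets that match several transcripts, and _x_at those whose probes may bind other sequences. Both JUN calls were lost without replicate 1 of 10A/143B (adjusted p = 0.0735 for 201466_s_at and 0.201 for 201465_s_at) and without replicate 1 of 468/143B (adjusted p = 0.0910 and 0.0888). That of 201465_s_at was also lost without replicate 2 of 10A/143B (adjusted p = 0.0701), without replicate 2 (adjusted p = 0.0541) or 3 (adjusted p = 0.0560) of 468/143B and with an offset of 64 (adjusted p = 0.0515), and without the intensity trend both were (adjusted p = 0.0603 and 0.0833).

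JUNB, a JUN protein that can hold JUN's activity in check, was 1.85-fold lower in 10A/143B (-0.89 ± 0.18, adjusted p = 0.0133). The 10A/143B arrays had intensities of 117.0, 131.6 and 109.1 and the 468/143B arrays 245.6, 222.9 and 218.3, without overlap. Without replicate 1 of 10A/143B or of 468/143B, which leaves 1 sample in that group, the difference was -0.87 or -0.82. The call did not hold in either of these fits.

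JUND, the JUN protein that resting cells make steadily, did not pass on any of its 4 probe sets, and by limma none had an unadjusted p under 0.05 either. On the brightest, 203752_s_at, the arrays had 369.6, 404.5 and 415.9 in 10A/143B and 333.1, 418.8 and 410.1 in 468/143B, and they overlapped. The difference was 0.06 ± 0.16 (95% confidence interval -0.31 to 0.44), and its sign turned with the scaling (-0.057 after quantile normalization, -0.025 after median centring). The other 3 lay below the median level of the arrays in both cybrids, with intensities from 1 to 23.4, and their arrays overlapped.

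ATF3 encodes a stress-induced factor that pairs with JUN proteins and often represses. On 202672_s_at the 10A/143B arrays had intensities of 184.8, 162.0 and 171.3, and the 468/143B arrays had 744.4, 770.7 and 714.1. Within each cybrid the arrays lay close together and the groups were far apart. ATF3 was 3.96-fold lower in 10A/143B (-1.99 ± 0.14, adjusted p = 0.000710), with log2 levels of 7.58 ± 0.10 against 9.57 ± 0.0034 (SD, n = 2 samples).

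The probe set 1554980_a_at, whose ending marks transcripts of a single gene, had 46.2, 50.6 and 56.9 in 10A/143B and 196.7, 94.4 and 104.7 in 468/143B. It did not overlap either and was lower as well (-1.25 ± 0.31, adjusted p = 0.0339). Replicate 1 of 468/143B was about as far above its other arrays as those were above 10A/143B. Without that array, which leaves 1 sample in its group, the difference was -0.81. Without replicate 1 of 10A/143B, with the same limit, it was -1.17. The call did not hold in either of these fits. It was also lost without replicate 3 of 468/143B (adjusted p = 0.0550) and without the intensity trend (adjusted p = 0.0683). The dim 1554420_at had 34.1, 44.3 and 52.7 against 46.5, 62.7 and 60.1, overlapped and did not pass (-0.29 ± 0.29, adjusted p = 0.595).

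MAFF encodes a small MAF protein, which has a leucine zipper but no activation domain and pairs with NRF2 and BACH1 or with itself. Both of its probe sets passed, in the same direction. On 36711_at its intensities were 719.1, 792.4 and 820.3 in 10A/143B and 1872, 1911 and 1965 in 468/143B, a 2.47-fold difference (-1.30 ± 0.11, adjusted p = 0.00101). On 205193_at they were 216.8, 227.5 and 232.3 against 744.4, 685.0 and 724.1, a 3.09-fold difference (-1.63 ± 0.14, adjusted p = 0.000935). Both were lower in 10A/143B in every pairing of arrays.

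ATF2, a factor that stress kinases activate by phosphorylation and that pairs with JUN, was the only gene of the 10 whose brightest probe set passed as higher. On 212984_at the intensities were 596.3, 508.5 and 512.0 in 10A/143B and 369.6, 372.2 and 372.2 in 468/143B, a 1.47-fold difference without overlap (0.55 ± 0.14, adjusted p = 0.0366). This call depended on scaling, since it was lost after quantile normalization (0.44, adjusted p = 0.0652) and median centring (0.46, adjusted p = 0.0975). Leaving out the intensity trend ended it as well (adjusted p = 0.104). Without replicate 1 of 10A/143B or of 468/143B, which leaves 1 sample in that group, the difference was 0.44 or 0.55. The call did not hold in either of these fits. On 205446_s_at the values were 84.4, 65.3 and 74.0 against 146.0, 73.0 and 68.6, where replicate 1 of 468/143B stood apart (-0.35 ± 0.32, adjusted p = 0.555, and 0.10 without that array). The dim 1555146_at, with intensities from 5.90 to 14.9, did not pass (0.15 ± 0.25, adjusted p = 0.774).

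**Figure D2:**
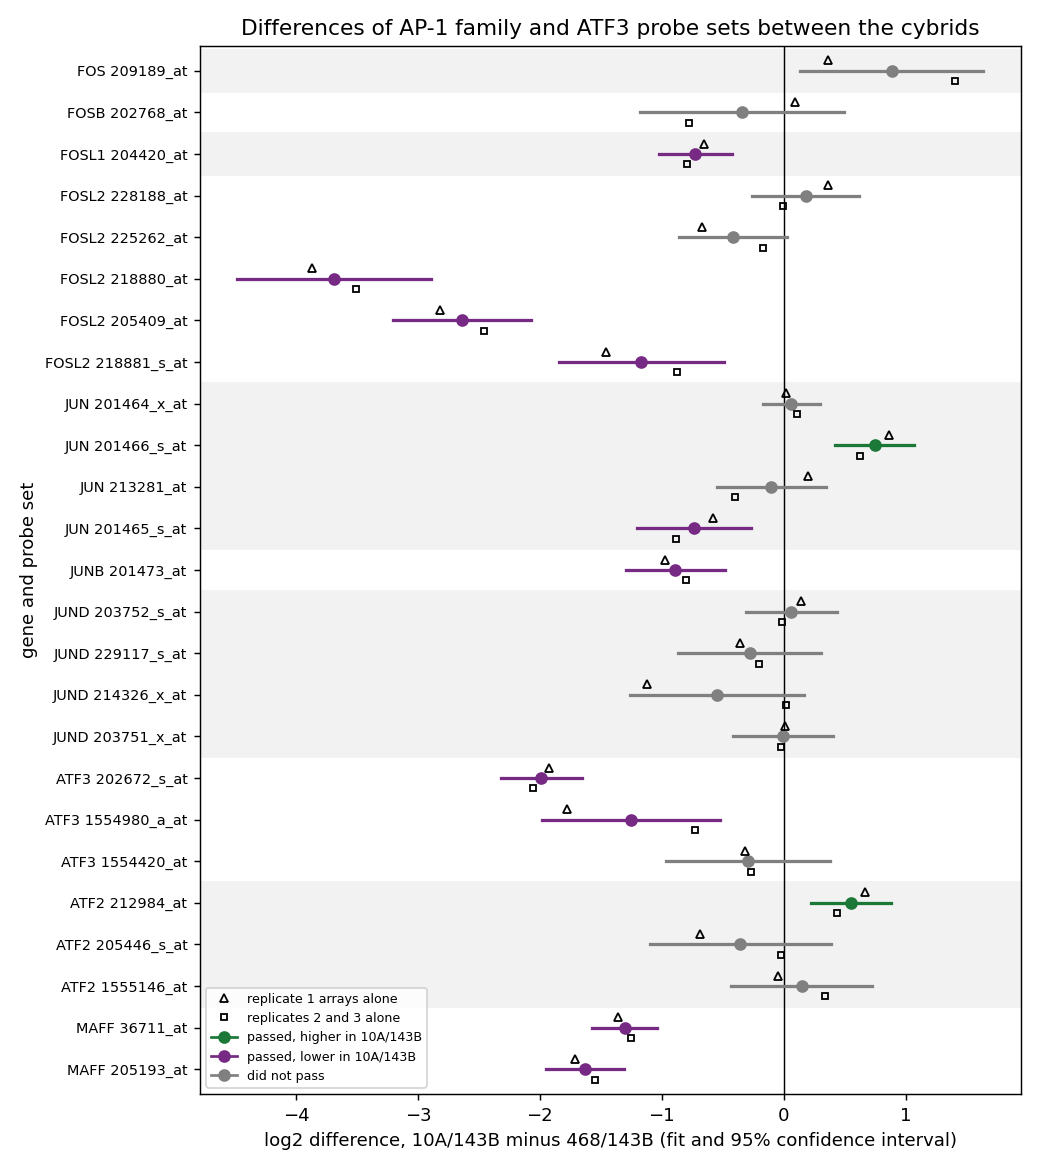
Log2 difference (10A/143B minus 468/143B) of each of the 25 probe sets with its 95% confidence interval from limma, coloured by whether it passed, and the difference between the replicate 1 arrays (triangles) and between the means of replicates 2 and 3 (squares). All 12 probe sets that passed have the same sign in both, and the 2 replicate sets disagree in sign on 7 of the others. The fitted difference is the mean of these 2 values, so their agreement is no separate test of the calls.

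By its brightest probe set each, 4 of the 10 genes were lower in 10A/143B (FOSL1, JUNB, ATF3, MAFF) and 1 was higher (ATF2), where 7.48% of 19775 genes were lower and 12.4% higher, 19.9% in all. All 10 reached the median level of the arrays, and among the 13079 genes that did, 11.2% were lower and 18.6% higher, 29.8% in all. FOSL2 does not count among them because its brightest probe set by mean log2 level did not pass. The median difference varied with gene length when 7748 protein-coding genes were split by length into 10 equal classes. The shortest class, in which FOS, JUN, JUNB and JUND fall, had a median of -0.27, and that of FOSB and FOSL1 had -0.23. The classes of MAFF, FOSL2, ATF3 and ATF2 had medians of -0.14, -0.01, 0.20 and 0.40. The 20 measured genes nearest to JUNB on chromosome 19 had a median of -0.39, with 7 lower. Those around FOSB and JUND, on the same chromosome, had -0.26 and -0.25, those around FOSL1 -0.20 and those around MAFF -0.27. Around ATF3 the median was 0.13 and around ATF2 0.21. By their brightest probe sets, FOSB, FOSL1, JUNB, ATF3 and MAFF lay below the medians of both their length class and their neighbours, and FOS, FOSL2, JUN, JUND and ATF2 lay above both. What part length or position has in the differences was not tested.

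Promoter sequences show which members carry DNA letters that AP-1 and ATF proteins are known to bind. RefSeq windows (GRCh38.p14) of 250 bases before to 50 after a gene's start were at hand for 8 of the 10 genes, with a further start each for ATF3 and MAFF, so 10 windows, and were searched on both strands for the cyclic AMP element TGACGTCA, its variant TGACATCA and the AP-1 site TGACTCA. These motifs do not contain each other. ATF3, MAFF and JUN are printed because their windows hold one of the motifs within 150 bases before the start. JUNB, which was lower too, has none of them. Each line gives the 150 bases before the start, 5′ to 3′ on the gene's strand, with the motif in capitals.
ATF3 (chr1:212565257-212565406, plus strand): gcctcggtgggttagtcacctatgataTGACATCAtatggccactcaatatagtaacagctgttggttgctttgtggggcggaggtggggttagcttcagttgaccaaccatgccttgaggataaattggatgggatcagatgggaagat
MAFF (chr22:38201844-38201993, plus strand): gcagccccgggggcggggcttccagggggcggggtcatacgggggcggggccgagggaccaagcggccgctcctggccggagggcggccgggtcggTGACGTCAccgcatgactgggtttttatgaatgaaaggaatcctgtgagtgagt
JUN (chr1:58784048-58784197, minus strand): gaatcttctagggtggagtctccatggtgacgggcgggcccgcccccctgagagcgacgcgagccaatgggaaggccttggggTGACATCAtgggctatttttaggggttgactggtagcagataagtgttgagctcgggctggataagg

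The motif of ATF3 begins 123 bases before this start, that of MAFF 54 and that of JUN 67. JUND, which did not pass, has TGACGTCA 200 bases before its start, and FOSL2 has TGACTCA from base 5 after its start. FOS, FOSB and JUNB had no exact match to these letters in their windows, nor did the further starts of ATF3 and MAFF. Any start of these genes without a window at hand, of ATF3 too, was not searched. Of all 35116 windows, 1.85% held TGACGTCA, 2.61% TGACATCA, 4.95% TGACTCA and 9.15% any of them, against 5 of the 10 windows of these genes. A match is a description of the letters, and it was found in genes that passed and in genes that did not.

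The genes whose values over the 6 arrays were most like those of a member were looked up among 12426 genes above the median level. For FOSL2 218880_at they were HS3ST6 (Pearson r = 0.9992), OSR2 (r = 0.9991) and TRABD2B (r = 0.9990), and 209 genes had r above 0.99. For FOS they were NEIL3 (r = 0.9947), MSL3 (r = 0.9927) and SPC24 (r = 0.9897). With 2 cybrids and near-duplicate arrays these correlations mainly restate which arrays are high.

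Around AP-1, 8 lists of genes were described by counts, with 1 probe set per gene. Most of their genes reached the median level of the arrays, so each count is set beside the shares of genes at that level, 11.2% lower, 18.6% higher and 29.8% in all, as well as the 19.9% of all genes. A list's own share is over all its measured genes, also those below that level. Partners and other factors with the same kind of DNA-binding domain went both ways, with 5 of 29 lower in 10A/143B and 3 higher. Of the 29, 27.6% passed, against 29.8% of genes at that level and 19.9% of all (median -0.18). However, 3 of the 29 lay below that level. DDIT3, a stress factor that pairs with ATF3 and C/EBP proteins, was 3.21-fold lower (-1.68 ± 0.14, adjusted p = 0.000902). DBP, a clock output factor, was 2.76-fold lower (-1.46 ± 0.28, adjusted p = 0.0117), and a dimmer probe set of it did not follow (-0.06). NFIL3, a repressor that binds the same sites as DBP, was 2.20-fold lower (-1.14 ± 0.14, adjusted p = 0.00245).

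Of the kinases and scaffolds of the JNK and p38 pathways, which phosphorylate JUN and ATF2, 8 of 25 were higher in 10A/143B and 2 lower (40.0% passed, against 29.8% of genes at that level and 19.9% of all, median -0.09). The 3 largest were all upstream kinases. TNIK was 2.91-fold higher (1.54 ± 0.25, adjusted p = 0.00592), MAP3K4 2.84-fold (1.51 ± 0.17, adjusted p = 0.00188) and MAP3K2 2.66-fold (1.41 ± 0.19, adjusted p = 0.00289). Of the dimmer probe sets of TNIK, 1 passed as higher too (1.07), and the others did not pass (0.75 and -0.65). Kinases of the ERK pathway split evenly, with 2 of 11 higher and 2 lower (36.4% against 29.8% and 19.9%, median -0.09). MAPK3, which encodes ERK1, was 2.61-fold lower (-1.38 ± 0.23, adjusted p = 0.00680), ARAF 1.63-fold lower (-0.71 ± 0.19, adjusted p = 0.0425) and RPS6KA5, a kinase of CREB, 1.64-fold higher (0.72 ± 0.17, adjusted p = 0.0264).

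Among SRF, its partners, CREB factors and their coactivators, with MEF2 factors, 5 of 16 were higher and 1 was lower (37.5% against 29.8% and 19.9%, median 0.42). ELK4, a partner of SRF, was 4.36-fold higher (mean intensities 726.3 against 153.8, 2.12 ± 0.19, adjusted p = 0.00111), also on 2 other probe sets (2.47 and 2.09), while 4 dimmer ones did not pass (-0.79 to 0.16). MRTFB, a coactivator of SRF, was 2.98-fold higher (1.57 ± 0.19, adjusted p = 0.00232), although a very dim probe set passed the other way (-0.65, adjusted p = 0.0406). MEF2A, a factor known to act on the JUN promoter, was 2.61-fold higher (1.38 ± 0.17, adjusted p = 0.00245), and its 3 dimmer probe sets did not pass (0.65, 0.37 and -0.22). SRF itself, named here after its values were seen, did not pass (0.23 ± 0.16, adjusted p = 0.425).

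Of other immediate early genes, 11 of 25 were lower in 10A/143B and 5 higher, so 16 passed (median -0.20), where 11.2% of genes at the median level were lower and 18.6% higher. These genes were listed with earlier results of these data known, so the count is a description. PPP1R15A, which restarts translation after stress, was 5.87-fold lower (mean intensities 288.8 against 1801, -2.55 ± 0.15, adjusted p = 0.000665). GADD45B, a stress gene upstream of p38, was 5.72-fold lower (-2.52 ± 0.11, adjusted p = 0.000385). NFKBIZ, a nuclear cofactor of NF-κB, went the other way and was 4.83-fold higher (2.27 ± 0.19, adjusted p = 0.000905). Of 18 genes linked to ATF3 and the integrated stress response, 7 were lower and 2 higher (50.0% against 29.8% and 19.9%, median -0.28), which is a description for the same reason. PPP1R15A and GADD45B belong to both lists, and the largest increase was that of the cystine transporter SLC7A11, 4.25-fold (2.09 ± 0.16, adjusted p = 0.000804), with a dim probe set that did not follow (-0.31).

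Of genes known as AP-1 targets, 7 of 32 were higher in 10A/143B and 2 lower (28.1% passed, median 0.14 against -0.02 for all genes). Of all genes 19.9% passed, and of those at the median level 29.8%. Of the 32 listed genes 7 lay below that level, so 28.1% and 29.8% do not cover like sets. CXCL8, an inflammatory chemokine, was 8.45-fold higher (mean intensities 580.8 against 56.8, 3.08 ± 0.18, adjusted p = 0.000665). MMP10, a matrix protease, was 2.58-fold higher (1.36 ± 0.28, adjusted p = 0.0144), and VEGFA, the angiogenic factor, 2.47-fold (1.31 ± 0.11, adjusted p = 0.000940), although 3 further probe sets of VEGFA did not pass (0.13, -0.30 and -0.02). The protease MMP1, a textbook AP-1 target chosen here after its values were seen, did not pass (0.18 ± 0.08, adjusted p = 0.213). Its mean intensities, 10347 against 9155, lay near the highest values on the arrays, which ranged from 10809 to 13125. Whether the top of the scale limits its difference was not tested. Of 13 genes of FOS and JUN mRNA decay and protein turnover, 2 were lower and 1 higher (23.1%, between the 19.9% of all genes and the 29.8%, median -0.01). ZFP36, which speeds the decay of FOS mRNA and is itself an immediate early gene, was 2.48-fold lower (-1.31 ± 0.13, adjusted p = 0.00143), TRIM7 1.76-fold lower (-0.82 ± 0.21, adjusted p = 0.0337) and HNRNPD 1.53-fold higher (0.61 ± 0.10, adjusted p = 0.00743). TRIM7 had 2 dimmer probe sets that did not follow (0.53 and 0.21), and a bright HNRNPD probe set, at mean intensities of 1637 against 1804, did not either (-0.097).

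**Figure D3:**
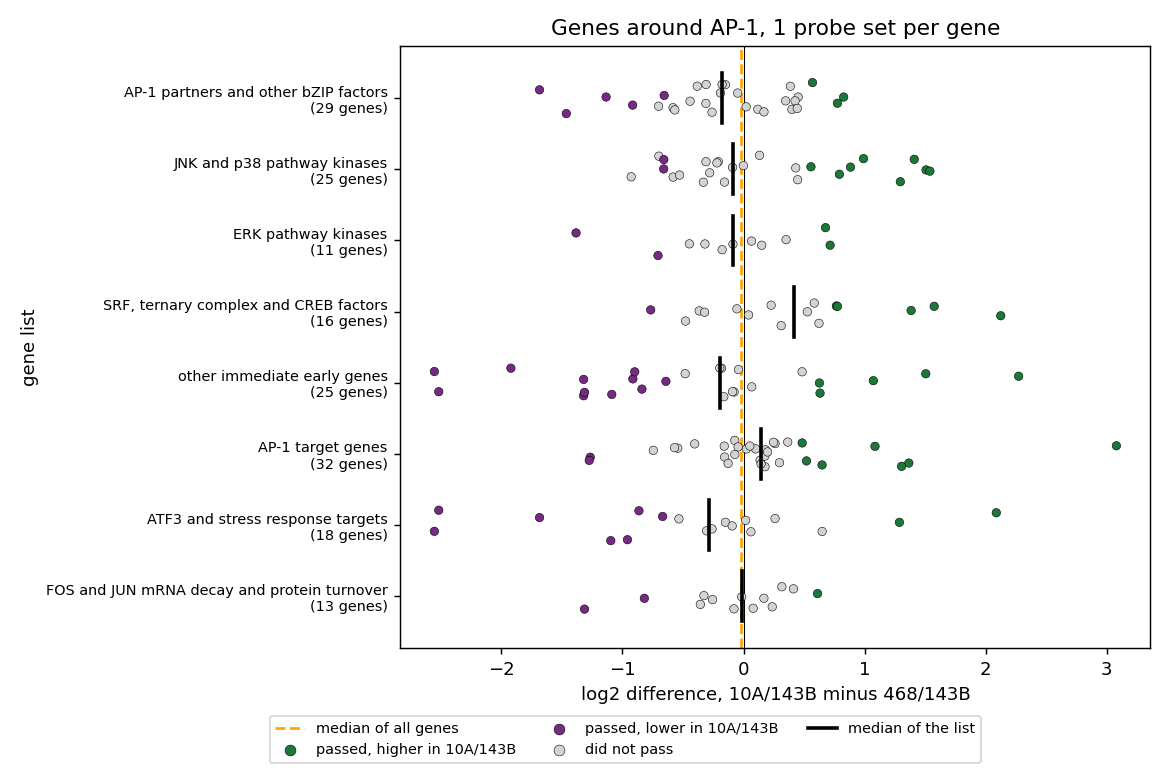
Log2 difference (10A/143B minus 468/143B) of the genes of 8 lists, 1 point per gene by its brightest probe set, coloured by whether it passed, with the list's median as a black bar and the median of all genes (-0.02) as a dashed line. Other immediate early genes reach from -2.55 to 2.27, and the list of SRF, ternary complex and CREB factors has the highest median of the 8, 0.42.

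Markers of the donor and of other cells were read on the same arrays. Summed over the 11 epithelial markers of MDA-MB-468, intensities were 6661 to 7026 in 10A/143B and 7421 to 8353 in 468/143B, with KRT8 (-1.09 ± 0.19, adjusted p = 0.00759) and KRT18 (-0.33 ± 0.09, adjusted p = 0.0459) lower and the rest not past the threshold. KRT18 makes up most of these sums, at 4908 against 6198 on average, and EGFR had the other sign at 1595 against 1206 (0.54, adjusted p = 0.0903). The 3 basal markers of MCF10A that were analysed, KRT5, KRT14 and DSG3, summed to 39.4 to 72.2 against 37.0 to 55.7, and by limma none passed or had an unadjusted p under 0.05. Of 8 smooth muscle and fibroblast markers, summing to 434.5 to 847.6 against 1303 to 1556, MYL9 (-2.26 ± 0.27, adjusted p = 0.00220), ACTA2 (-1.50 ± 0.18, adjusted p = 0.00225) and PDGFRB (-1.27 ± 0.25, adjusted p = 0.0135) were lower. TAGLN makes up most of these sums, at 458.8 against 853.2 on average, and did not pass (-1.09, adjusted p = 0.0790). DES, DCN, CNN1 and LUM did not pass either (0.14, 0.15, -0.08 and -0.08). Nor did further probe sets of ACTA2 (-0.03 and -0.16) and MYL9 (-0.36). Of 7 osteoblast markers SPARC was lower (-0.64 ± 0.10, adjusted p = 0.00574), and a further probe set of it did not follow (-0.17). The other osteoblast markers did not pass and went both ways, from -0.87 for ALPL to 0.50 for COL1A1. The part of these markers in the AP-1 and ATF3 differences was not tested.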

How the data were processed

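What the authors deposited is a table of probe set intensities for the 6 arrays, not log-transformed. Total RNA (5 µg) was made into biotin-labelled target by the manufacturer's protocol, per the labels' protocols. How probes were summarised, background-corrected and scaled is not given here by any source. Group and replicate number follow each array's source name.

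Values were used without further normalization as log2(intensity + 16). Of 54675 probe sets, 62 controls were left out. The platform's probe table names 41091 of the rest with 1 symbol, 41037 of them updated through Entrez identifiers to RefSeq genes of GRCh38.p14. A gene with several probe sets was represented in the lists by that with the highest mean. Probe sets with several symbols were not named. List genes without a probe set of a single symbol were not analysed here.

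Replicates 2 and 3 of each cybrid were averaged, and the cybrids' samples entered limma (version 3.58.1, R 4.3.3) with lmFit and eBayes (an intensity trend, Benjamini-Hochberg at 0.05). The script was tested on simulated data. Deviations from the group means correlated between same-numbered arrays of the cybrids (0.278, 0.227 and 0.216 for replicates 1, 2 and 3 over 9187 probe sets). Replicate 1 of each cybrid correlated negatively with replicates 2 and 3 of the other (-0.235 to -0.274). The split of replicate 1 from replicates 2 and 3 was therefore partly shared by the cybrids. Replicates 2 and 3 correlated across numbers too (0.257 and 0.206), so whether numbers pair arrays among these cannot be told from these values. The main fit had no replicate block and did not take the shared split into account. Fits with a replicate block were alternatives. Precision is limited by how few arrays there are, and no detection calls were used.

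Every member is described. Of each list up to 3 genes past the threshold with the largest difference were named, or the 2 with the smallest p. Identity checks were VIM, RUNX2, KRT5 and EPCAM, and genes most like FOS and FOSL2 were found by Pearson r. Members and lists were chosen with earlier results of these data known. Alternatives were other uses of the replicates, scaling, offsets, a level filter, 1 probe set per gene, no intensity trend and each array left out; differences within replicate 1 and within replicates 2 and 3 were added after the data were seen.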

Additional observations from a re-analysis of the deposited data

How the results depend on the processing

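The 12 member probe sets that passed kept their direction under each of the 17 alternatives that included them, and 5 of them (MAFF 36711_at and 205193_at, ATF3 202672_s_at, FOSL2 218880_at and 205409_at) passed in every one of these. Leaving out 1 array gave 5 to 12 member calls (0 to 2 higher, 5 to 10 lower), 2071 to 8239 calls over all probe sets and 23 to 60 of 161 list genes, against 12, 2, 10, 8609 and 60. The fewest members passed without replicate 1 of 10A/143B (5) or of 468/143B (6), where limma called none higher although 2 and 3 higher ones had an unadjusted p under 0.05. These fits leave 1 sample in a group, assumed to vary like the other. Without the intensity trend 7 member probe sets passed, none higher (3 at an unadjusted p under 0.05), and 38 list genes. Quantile normalization and median centring each left 1 higher member, and the share of calls that were higher went from 67.8% to 56.5% and 58.8%. With 1 probe set per gene 5 members (1 higher, 4 lower) and 4483 genes passed. All 6 arrays as separate samples gave 15293 calls and the replicate block on 6 arrays 16401, with 93 list genes. The replicate block on averaged samples gave 13 member calls, adding FOS, 75 list genes and 11933 in all, and it ended no member's call. Signs turned only for members that had not passed, for JUN 201464_x_at (-0.020 quantile, -0.026 centred), JUND 203752_s_at (-0.057 and -0.025 likewise, and -0.086 to 0.14 with 1 array left out), JUND 203751_x_at (0.12 at an offset of 1, and -0.19 to 0.16 with 1 array left out), FOSL2 228188_at (-0.060 to 0.23 with 1 array left out, the lowest without 10A/143B replicate 1) and ATF2 205446_s_at (-0.47 to 0.10 with 1 array left out, the highest without 468/143B replicate 1). The causes were not tested.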
